A study of Mus musculus with 16 samples.

Results

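Chitinases and chitinase-like proteins are represented by 5 genes in these data, Chia1, Chit1, Chil1, Chil3 and Chil4, of 49315 genes counted in cultures of murine airway epithelium. They were taken by symbol and chosen by a measured value, the low Chil4 counts of HDM-treated female WT cultures. Values of the 5 genes in any comparison that holds those cultures are therefore a description without a test. The cultures were MTECs, primary tracheal epithelial cells grown with air above and medium below on inserts coated with basement membrane left by 3T3 fibroblasts, and 3 tracheas were pooled for 2 conditions. Cells came from male (M) and female (F) C57BL/6J mice that were WT or labelled LMAN1 KO, littermates from heterozygous breeding, whose ages were not given in the sources used here. LMAN1 is a cargo receptor that carries glycoproteins out of the endoplasmic reticulum. Cultures were left naive or treated overnight with house dust mite extract (HDM) at 20 µg/ml. This gave 8 groups of 2 biological replicates each, named below as M WT naive, M WT HDM, M KO naive, M KO HDM, F WT naive, F WT HDM, F KO naive and F KO HDM. With 2 cultures per group and pooled tracheas, p-values measure the spread between these cultures.

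Chitin is a polymer of N-acetylglucosamine that stiffens the cuticle of mites and other arthropods. Chia1 (acidic mammalian chitinase) and Chit1 (chitotriosidase) are secreted enzymes that cut it, while Chil1, Chil3 and Chil4 are secreted lectins of the same fold that no longer cut chitin. All belong to glycoside hydrolase family 18 (GH18). In allergic airways, Chia1, Chil3 (Ym1) and Chil4 (Ym2) are well known as genes induced by IL-4 and IL-13, and Chil1 is linked to type 2 inflammation and to the receptor chain Il13ra2. In mice, Chil3 is a product of macrophages and neutrophils, and Chil4 is known from allergic airway epithelium and stomach.

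The difference between enzymes and lectins is visible in the segment that holds the catalytic residue. The 33 coding bases below are from GENCODE M21 transcripts (GRCm38), 5′ to 3′ on the coding strand, with the codon at the catalytic position in capitals. It is codon 149 in Chil1 and codon 140 in the others.
Chia1: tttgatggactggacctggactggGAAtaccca
Chit1: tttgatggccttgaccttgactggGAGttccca
Chil1: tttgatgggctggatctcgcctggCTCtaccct
Chil3: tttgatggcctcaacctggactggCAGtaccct
Chil4: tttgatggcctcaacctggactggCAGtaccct
GAA and GAG are glutamate codons, CTC is a leucine codon and CAG is a glutamine codon, so only Chia1 and Chit1 of the 5 keep the glutamate that chitinases use. Chil3 and Chil4 were identical over these bases and 95.3% identical over 1197 aligned coding bases. Chil4 was 76.8% identical to Chia1 (1205 aligned bases), 65.5% to Chil1 (1075 aligned bases) and 64% to Chit1 (1174 aligned bases).

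The members lie in 2 clusters. Chit1 (ENSMUSG00000026450, chr1:134111242-134151540, plus strand) and Chil1 (ENSMUSG00000064246, chr1:134182176-134190181, plus strand) are neighbours on chromosome 1 of GRCm38. Chia1 (ENSMUSG00000062778, chr3:106113229-106132120, plus strand), Chil3 (ENSMUSG00000040809, chr3:106147554-106167564, minus strand) and Chil4 (ENSMUSG00000063779, chr3:106201490-106219507, minus strand) lie together on chromosome 3, with the relatives Chil5 and Chil6 on either side. All 5 are annotated as protein coding. Because Chil3 and Chil4 are near copies, reads could be split between them, and how the authors counted reads that map to several places was not stated. Of the 50-base words of Chil4 transcripts, 11% also occurred in transcripts of another gene (Chil3 or the pseudogene Gm6522), against 26.9% for Chil3 and 0% for the other members. At 100 bases these shares were 2.03% for Chil4 and 4.93% for Chil3.

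The 300 bases around the RefSeq start sites of Chil3 and Chil4 (250 before and 50 after, GRCm38.p6, minus strand, written 5′ to 3′) are shown because the promoters are nearly as alike as the coding parts while the counts are not. Capitals mark the letters TTCNNNGAA, a palindrome that reads the same on both strands and is known as a site for STAT proteins.
Chil3, chr3:106167515-106167814: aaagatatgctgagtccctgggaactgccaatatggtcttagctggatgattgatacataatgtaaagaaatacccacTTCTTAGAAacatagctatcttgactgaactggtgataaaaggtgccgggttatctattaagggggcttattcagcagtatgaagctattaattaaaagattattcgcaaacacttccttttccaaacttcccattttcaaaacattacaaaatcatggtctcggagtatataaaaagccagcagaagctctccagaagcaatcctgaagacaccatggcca
Chil4, chr3:106219430-106219729: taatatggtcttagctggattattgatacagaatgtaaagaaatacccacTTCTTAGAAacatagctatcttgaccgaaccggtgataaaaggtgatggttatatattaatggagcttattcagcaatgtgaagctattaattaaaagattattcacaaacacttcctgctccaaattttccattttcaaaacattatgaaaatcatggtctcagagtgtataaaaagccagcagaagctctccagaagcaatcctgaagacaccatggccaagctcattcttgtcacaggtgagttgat
They were 92.6% identical over 271 aligned bases. The palindrome stood in 2 of the 5 member promoters, those of Chil3 and Chil4, and in 8.30% of all 32851 promoter windows in the RefSeq table. The spacing TTCNNNNGAA, preferred by STAT6, was searched as well and stood in 0 of the 5 and in 6.95% of all windows. The matches describe letters only.

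Libraries held 21860698 to 43442188 counts on genes, and 15993 genes passed the filter on low counts. Lman1, the targeted gene, was at 101 to 144 TMM-scaled CPM (counts as edgeR scales them for library size) in the 8 WT libraries. It was at 12.8 in both F KO naive libraries, 14.2 and 63.4 in M KO naive, 66.6 and 78.1 in F KO HDM, and 65.0 and 66.0 in M KO HDM. Thus several libraries labelled KO kept much of the transcript, and Lman1 itself rose between F KO naive and F KO HDM (log2 fold change 2.5, SE 0.48, adjusted p = 0.00744 in edgeR's quasi-likelihood test). KO is used below only as the label. Markers of secretory, ciliated and basal airway cells were detected in every group. Their summed levels ranged over 4503 to 47773 CPM for 10 secretory (club) markers, 567 to 804 for 10 ciliated markers and 2385 to 13315 for 8 basal markers. Most of the ciliated sum was Tubb4b (508 to 605 CPM by group mean), and 7 of the 10 ciliated markers fell in F WT HDM.

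Chil4 was the abundant member. It took 97% of all counts on the 5 genes and stood, per kilobase of exon, above 78.8% of tested genes in the naive cultures. In TMM-scaled CPM per kilobase, Chil4 averaged 15.0 in M WT naive, 15.6 in M KO naive, 19.2 in F WT naive and 16.5 in F KO naive, whereas the means over all 16 libraries were 0.223 for Chil1, 0.159 for Chia1, 0.0461 for Chit1 and 0.0175 for Chil3. Chil4, Chil1 and Chia1 passed the filter and were tested. Chil3 and Chit1 did not pass.

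Before treatment, Chil4 was well expressed in all 4 kinds of culture. It reached 42.1 and 42.6 CPM in M WT naive, 41.9 and 46.1 in M KO naive, 65.5 and 42.7 in F WT naive, and 67.1 and 25.7 in F KO naive. The 2 F KO naive replicates enclosed all of the other naive values, so the spread between female replicates was wider than any difference between naive groups. Over the 8 naive libraries the mean was 46.7 ± 13.6 CPM (SD, n = 8). None of the 4 naive comparisons passed edgeR's test. The log2 fold change was -0.22 for KO minus WT in F (SE 0.41, adjusted p = 1), 0.05 for KO minus WT in M (SE 0.41, adjusted p = 0.995), -0.35 for M minus F in WT (SE 0.41, adjusted p = 0.776) and -0.08 for M minus F in KO (SE 0.41, adjusted p = 0.973). Over all tested genes, edgeR called 0%, 0%, 0.1% and 0.188% in these comparisons. In the 2 genotype comparisons, 203 genes in F and 867 in M had an unadjusted p under 0.05, and DESeq2 called 1 and 0. The sign of 3 of these 4 values turned when 1 library was left out. KO minus WT in F was 0.12 without F WT naive replicate 1 and 0.31 without F KO naive replicate 2, KO minus WT in M was -0.02 without M KO naive replicate 2, and M minus F in KO was 0.78 without F KO naive replicate 1.

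**Figure D1:**
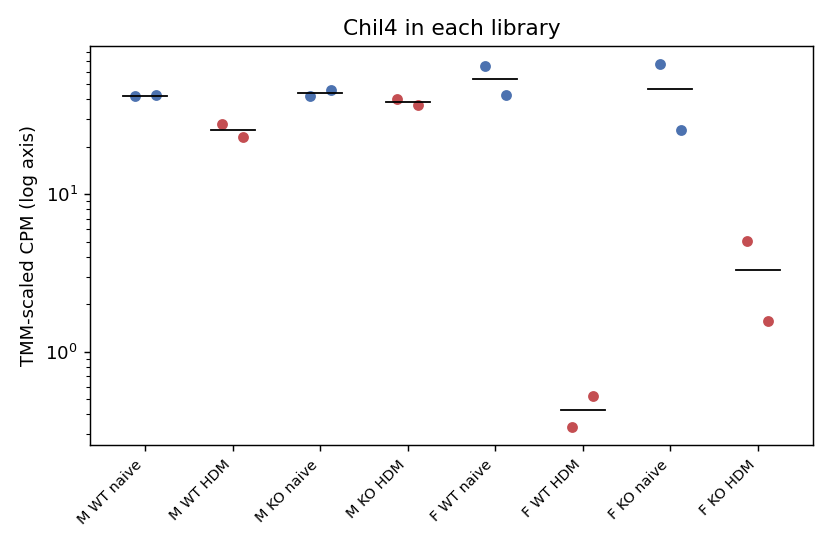
Chil4 in each of the 16 libraries, in TMM-scaled CPM on a log axis. Points are cultures, bars are the means of 2 replicates, blue is naive and red is HDM. F WT HDM (0.333 and 0.521) and F KO HDM (5.04 and 1.58) lie far below the other groups, which lie between 23.0 and 67.1.

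After HDM, Chil4 was low in female cultures. In F WT HDM it was at 0.333 and 0.521 CPM, from 8 and 11 counts, against 1803 and 1901 counts in F WT naive. This is 0.789% of the naive mean, a 127-fold lower level, and is the value by which the members were chosen. The log2 fold change of -6.99 was the 25th lowest of 15993 genes, in a comparison in which edgeR called 43.1% of genes, 22.4% as lower. Both F WT HDM libraries were above the floor of 3 counts (0.125 and 0.142 CPM), so the transcript was still detected.

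In F KO cultures, whose libraries were not used to choose the genes, Chil4 also fell. It was at 67.1 and 25.7 CPM in F KO naive (2354 and 830 counts) and at 5.04 and 1.58 CPM in F KO HDM (125 and 44 counts). The treated mean was 7.13% of the naive mean. The log2 fold change was -3.83 (SE 0.50, adjusted p = 0.00107 in edgeR's quasi-likelihood test), the 20th lowest of 15993 genes. edgeR called 10.4% of genes in this comparison and 5.77% as lower. The replicates of each group lay well apart, with replicate 1 the higher in both, and leaving 1 library out moved the value. It was -2.97 without F KO naive replicate 1, -4.36 without F KO naive replicate 2, -4.88 without F KO HDM replicate 1 and -3.20 without F KO HDM replicate 2, with adjusted p between 0.00125 and 0.0169 in edgeR.

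In male cultures Chil4 was lower after HDM by far less, and not past the test with the filter on low counts. In M WT it was at 42.1 and 42.6 CPM in naive and at 28.1 and 23.0 CPM in HDM cultures. In M KO it was at 41.9 and 46.1 CPM in naive and at 40.4 and 36.9 CPM in HDM cultures. Neither difference passed edgeR's test. Fitted log2 fold changes were -0.73 in M WT (SE 0.42, adjusted p = 0.936), -0.19 in M KO (SE 0.41, adjusted p = 0.932) and -0.46 over both genotypes (SE 0.29, adjusted p = 1). edgeR called 0% of genes in each of these 3 comparisons, with 665, 857 and 356 genes at an unadjusted p under 0.05, and DESeq2 called 1, 1 and 15. Without a filter on low counts, Chil4 passed edgeR's test in M WT and over both genotypes. Every one of the 4 male HDM libraries was below every one of the 4 male naive libraries, which held for 0.544% of tested genes. Both HDM libraries lay below both naive libraries in F KO, M WT and M KO alike, which held for 0.65% of tested genes.

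The sex difference under HDM was tested in the KO cultures. Chil4 was at 40.4 and 36.9 CPM in M KO HDM and at 5.04 and 1.58 CPM in F KO HDM. The log2 difference of M minus F was 3.57 (SE 0.50, adjusted p = 5.1e-04 in edgeR, where 25.3% of genes were called). It stayed between 2.94, without F KO HDM replicate 2, and 4.63, without F KO HDM replicate 1, and passed the test each time. The HDM response itself was lower in F KO than in M KO by a log2 difference of -3.64 (SE 0.64, adjusted p = 0.0140 in edgeR, where 3.56% of genes were called). That interaction no longer passed when M KO naive replicate 1 (-3.58, adjusted p = 0.0535), M KO HDM replicate 1 (-3.57, adjusted p = 0.0532), M KO HDM replicate 2 (-3.70, adjusted p = 0.0622), F KO naive replicate 1 (-2.79, adjusted p = 0.0587) or F KO HDM replicate 2 (-3.01, adjusted p = 0.0658) was left out of edgeR's fit. In WT cultures the same sex difference was 5.91, given as a description since it holds the F WT HDM libraries.

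Genotype differences under HDM were smaller. In male cultures Chil4 was at 28.1 and 23.0 CPM in M WT HDM and at 40.4 and 36.9 CPM in M KO HDM. The log2 difference of 0.60 did not pass the test (SE 0.42, adjusted p = 0.457 in edgeR). edgeR called 0% of genes there, with 2897 genes at an unadjusted p under 0.05, while DESeq2 called 508. Without a filter on low counts, Chil4 passed edgeR's test in this comparison. The HDM response of M KO minus that of M WT was 0.54 (SE 0.59, adjusted p = 0.742 in edgeR, where 0% of genes were called, with 1388 at an unadjusted p under 0.05 and 0 called by DESeq2). In female cultures the log2 difference of KO minus WT under HDM was 2.94, again a description.

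**Figure D2:**
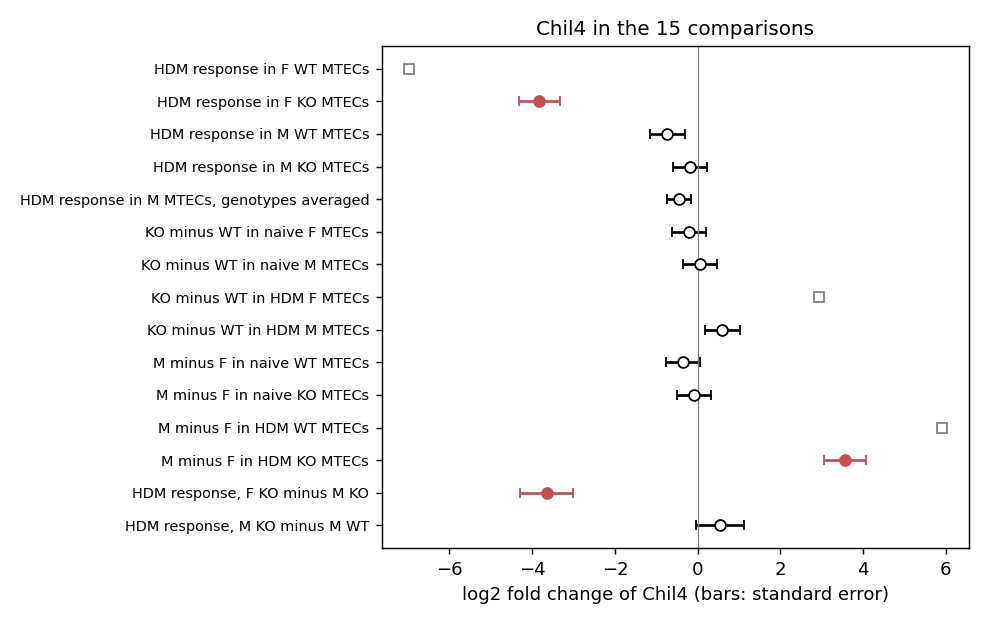
Log2 fold change of Chil4 in the 15 comparisons, with bars of 1 standard error. Filled red points passed an adjusted p of 0.05 in edgeR, open circles did not, and open squares hold the F WT HDM libraries and were not tested. The 3 filled points, at -3.83, 3.57 and -3.64, all rest on the F KO HDM libraries.

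Ordered by mean, the level of Chil4 ran from F WT naive (54.1 CPM) through F KO naive (46.4), M KO naive (44.0), M WT naive (42.3), M KO HDM (38.7), M WT HDM (25.6) and F KO HDM (3.31) to F WT HDM (0.427). Neighbours in this order overlapped among the 4 naive groups. Each HDM group lay apart from the group just before it in the order. The male HDM groups were not apart from every naive group. F KO naive replicate 2, at 25.7 CPM, lay below both M KO HDM libraries and between the M WT HDM libraries (28.1 and 23.0). In bulk libraries, fewer cells that make Chil4 and less Chil4 RNA in each cell cannot be told apart.

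The secretory markers moved with Chil4. Their summed level was 25350 and 31646 CPM in F KO naive and 10882 and 11421 in F KO HDM, and it was 27237 to 35732 in F WT naive and 4503 to 5511 in F WT HDM. In male groups it stayed between 32442 and 47773. Of the 10 secretory markers, 7 fell in F KO HDM and 10 in F WT HDM, with a median log2 fold change of -1.83 and -4.93, against a median near 0 over all tested genes. Of all tested genes, 5.77% fell in F KO and 22.4% in F WT. The 3 most abundant were Cyp2f2, a club cell cytochrome (-0.92 in F KO, adjusted p = 0.00899 in edgeR), Cbr2, a carbonyl reductase (-1.52, adjusted p = 0.00345), and Ltf, lactoferrin (-2.05, adjusted p = 5.46e-04). Cyp2f2 lost its call in edgeR without F KO naive replicate 1 (-0.78, adjusted p = 0.0979) or F KO HDM replicate 2 (-0.86, adjusted p = 0.101), and Cbr2 lost it without the latter (-1.40, adjusted p = 0.0562).

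Relative to the sum of these markers Chil4 was lower as well, a comparison without a test. The sum is weighted to the most abundant marker, Cyp2f2, which held 7458 of 11151 CPM in F KO HDM, on average. Cyp2f2 fell least of the 10 in F KO. Single markers came nearer to the log2 fold change of Chil4 (-3.83 in F KO), with Scgb3a1 at -3.64. Per 1000 CPM of the 10 markers, Chil4 was at 2.12 and 1.01 CPM in F KO naive and at 0.442 and 0.145 in F KO HDM. It was at 1.83 and 1.57 in F WT naive and at 0.0604 and 0.116 in F WT HDM. In male libraries this ratio lay between 0.987 and 1.29 in naive and between 0.710 and 0.932 in HDM cultures. The part of the secretory cells in the fall of Chil4 was not tested.

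**Figure D3:**
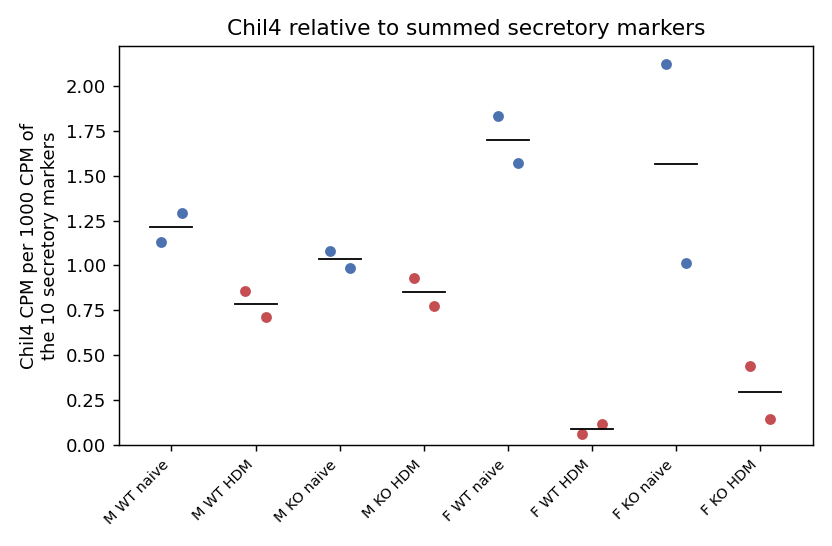
Chil4 relative to the summed level of 10 secretory markers in each library, as CPM of Chil4 per 1000 CPM of the markers. The sum is weighted to the most abundant markers, above all Cyp2f2. Points are cultures, bars are means of 2 replicates, blue is naive and red is HDM. F KO HDM (0.442 and 0.145) and F WT HDM (0.0604 and 0.116) lie below all other libraries, which lie between 0.710 and 2.12.

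Fewer markers of other cell types were called in F KO. The 10 ciliated markers had a median log2 fold change of -1.55 in F KO and -1.64 in M KO. In F KO, 4 of them had an unadjusted p under 0.05 in edgeR and DESeq2 called 3, against 2 and 0 in M KO. By edgeR's adjusted p, 1 of the 10 fell in F KO, where 5.77% of all genes fell, and 0 in M KO. The 1 was Rsph1, a radial spoke protein (-1.51, adjusted p = 0.0295 in edgeR), and its call was lost without any 1 of the 4 libraries (adjusted p from 0.100 to 0.148 in edgeR). Tubb4b was at -0.03 (adjusted p = 0.922) and Foxj1 at -0.86 (adjusted p = 0.145), both from edgeR. Of the 8 basal markers 1 fell in F KO, Dapl1 (-1.52, adjusted p = 0.00272 in edgeR). In that list 2 had an unadjusted p under 0.05 in edgeR and DESeq2 called 2. The keratins Krt5, Krt15 and Krt14 were at 0.23, -0.52 and 0.77 with adjusted p of 0.714, 0.245 and 0.354 in edgeR. In F WT HDM, 7 of 10 ciliated and 5 of 8 basal markers fell, where 22.4% of all genes fell.

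Chia1, the acidic chitinase, was low in all libraries. It had 19 and 10 counts in M WT naive, 11 and 8 in M WT HDM, 21 and 6 in M KO naive, 9 and 6 in M KO HDM, 6 and 13 in F WT naive, 1 and 3 in F WT HDM, 12 and 16 in F KO naive, and 6 and 3 in F KO HDM. The highest level was 0.724 CPM. Treated and naive libraries overlapped in CPM in M WT and M KO. Its log2 fold change in F KO was -1.26 (SE 0.73, adjusted p = 0.308 in edgeR), and it ranged from -1.92 to -0.78 with 1 library left out. In M WT and M KO it was -0.70 in both (adjusted p = 0.936 and 0.825 in edgeR). In F WT it was -1.50 as a description.

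Chil1, a lectin released by epithelium, macrophages and other cells, had low and scattered counts. It had 37 and 4 counts in M WT naive, 43 and 24 in M WT HDM, 40 and 13 in M KO naive, 17 and 14 in M KO HDM, 18 and 24 in F WT naive, 15 and 0 in F WT HDM, 27 and 24 in F KO naive, and 7 and 3 in F KO HDM. Replicates within M WT naive and within F WT HDM thus differed more than most groups did. Fitted values were -1.96 in F KO (SE 1.14, adjusted p = 0.313 in edgeR), 0.62 in M WT (SE 0.94, adjusted p = 0.960) and -0.64 in M KO (SE 0.98, adjusted p = 0.895). The F KO value passed when edgeR was fitted to the F KO libraries alone (-1.97, adjusted p = 0.0250) or without a filter on low counts (-1.97, adjusted p = 0.00544). It was -2.78 without F KO HDM replicate 1 and -1.41 without F KO HDM replicate 2, not past the test in either fit. In F WT it was -0.86 as a description.

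Chit1 and Chil3 were at or near the floor. Chit1, the macrophage chitinase, had 0 to 6 counts per library and 41 in all, with 11 of 16 libraries at 3 counts or fewer. Chil3 had 0 to 3 counts in each library, 14 in all and 0 in 8 libraries, which lies within the 3 counts that a count of 0 allows. No fold change is given for either gene. Chil3 was thus not detectable beside a near copy, Chil4, with up to 2354 counts in a library.

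**Figure D4:**
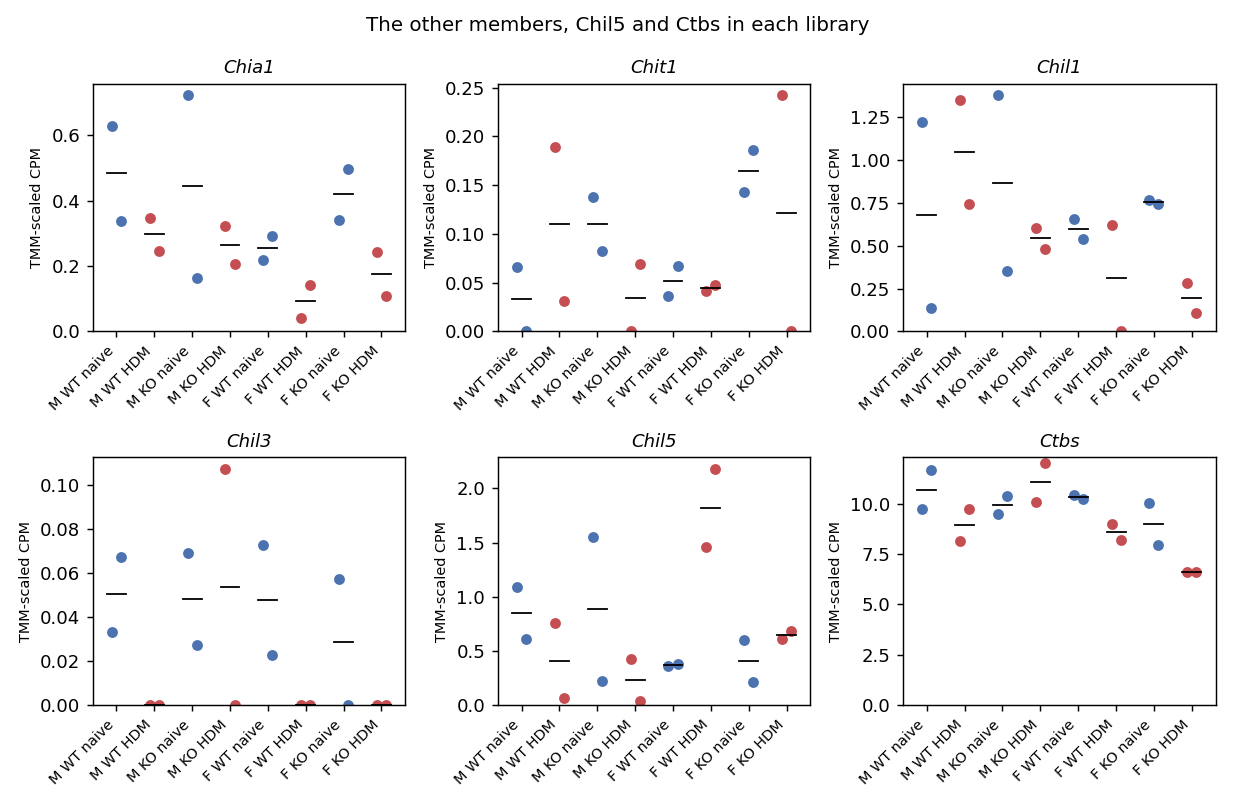
TMM-scaled CPM of Chia1, Chit1, Chil1 and Chil3 and of the relatives Chil5 and Ctbs in each library, on axes that start at 0 and differ between panels. Points are cultures, bars are means of 2 replicates, blue is naive and red is HDM. Chia1, Chit1, Chil1 and Chil3 stay at or below 1.38 CPM, and their replicates spread widely.

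Macrophage markers other than Siglecf were detected while Chil3 was not. Siglecf had 11 counts in all and 0 in 12 libraries. The summed level of 10 macrophage markers lay between 118 and 313 CPM over the libraries. Lyz2, Cd68 and Adgre1 were the highest per kilobase. Most of the sum was Lyz2 alone (64.8 to 212 CPM by group mean). In F KO the sum was 283 in both naive libraries and 197 and 239.9 in HDM libraries. There 1 of 9 tested markers fell, where 5.77% of all genes fell. It was Cd68 (-0.97, adjusted p = 0.0232 in edgeR), a call lost without any 1 of the 4 libraries (adjusted p from 0.0563 to 0.165 in edgeR). Lyz2 and Adgre1 were at -0.27 and -0.34 (adjusted p = 0.364 and 0.532 in edgeR). In F WT the sum was 251 to 308 in naive and 118 to 125 in HDM libraries, and 3 of 9 fell, Lyz2 (-1.55, adjusted p = 4.2e-05 in edgeR), Cd68 (-1.32, adjusted p = 0.00116) and Csf1r (-0.74, adjusted p = 0.0187), where 22.4% of all genes fell. The part of macrophages in the values of the members was not tested. Of 8 neutrophil markers, 5, among them S100a8, S100a9 and Mpo, had 3 counts or fewer in every library, and Mmp9 and Csf3r were tested and did not pass in F KO (-4.00 and -0.25, adjusted p = 0.0916 and 0.823 in edgeR). DESeq2 called Mmp9 (adjusted p = 0.0214). The 8 fibroblast markers summed to 2.99 to 598 CPM with wide gaps between replicates, and 0 of 8 were called in F KO by edgeR or DESeq2, with 0 at an unadjusted p under 0.05 in edgeR. Col1a1, Col3a1 and Col1a2 were at -0.34, -0.79 and -0.65 there (adjusted p = 0.931, 0.833 and 0.861 in edgeR). In F WT, 2 of 8 were called as higher, Dcn (3.39, adjusted p = 0.0315 in edgeR) and Lum (4.6, adjusted p = 0.0114). Of all genes, 20.6% rose there. Both calls rested mainly on F WT HDM replicate 2. Dcn was at 2.00 and 2.56 CPM in F WT naive and at 2.25 and 45.9 in F WT HDM. Lum was at 0.254 and 0.877 CPM in F WT naive and at 1.04 and 28.0 in F WT HDM. The summed level in the F WT HDM libraries was 49.4 and 598 CPM.

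Relatives of the family outside the 5 members were not called in F KO. Of the 6 listed GH18 relatives, 4 were tested and 0 were called in F KO, 1 having an unadjusted p under 0.05 in edgeR and 0 being called by DESeq2, with a median log2 fold change of -0.10. edgeR called 1 of the 4 in F WT, where it called 43.1% of all genes, namely Chid1, a lysosomal GH18 protein (0.23, adjusted p = 0.0229, and -0.13 in F KO, adjusted p = 0.28). Ctbs, a lysosomal chitobiase, was at -0.44 in F KO (adjusted p = 0.098 in edgeR). It was the 1 relative of 4 called between the sexes under HDM in KO cultures, higher in M KO HDM (11.1 CPM) than in F KO HDM (6.62 CPM) by 0.74 (SE 0.16, adjusted p = 0.00565 in edgeR, where 25.3% of all genes were called). Chil5, another lectin of the chromosome 3 cluster, had 10 and 17 counts in F WT naive, 35 and 46 in F WT HDM, 21 and 7 in F KO naive, and 15 and 19 in F KO HDM. Its log2 fold change between F WT naive and F WT HDM was 2.27 and did not pass (SE 0.99, adjusted p = 0.0858 in edgeR). Chil5 was at 0.64 in F KO (adjusted p = 0.753 in edgeR), and at 1.55 without F KO naive replicate 1 and 0.10 without F KO naive replicate 2.

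The position of Chil4 was also examined. Among the other 24 annotated genes within 300000 bases of it, 10 were tested and 2 fell in F KO, where 5.77% of all genes fell, the 2 being chosen for naming after their values were seen. They were Pifo, a ciliary gene (-2.37, adjusted p = 0.0301 in edgeR), and Dennd2d (-0.65, adjusted p = 0.00415). Pifo lost its call in edgeR without any 1 of the 4 libraries (adjusted p from 0.0875 to 0.216), and Dennd2d lost it without F KO naive replicate 1 (-0.54, adjusted p = 0.0593) or F KO HDM replicate 2 (-0.60, adjusted p = 0.0605). Atp5f1, Wdr77 and Cept1, the other abundant neighbours, were not called.

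Enzymes that handle the products of chitin did not pass the test in F KO. Of 9 tested genes for chitin and N-acetylglucosamine breakdown, 0 were called there by edgeR, 2 had an unadjusted p under 0.05 and DESeq2 called 1, with a median of 0.01. The lysosomal hexosaminidase subunit Hexa was at 0.03 (adjusted p = 0.936 in edgeR), and the deacetylase Amdhd2 was at 0.03 (adjusted p = 0.897). In F WT, 3 of the 9 rose, Hexa (0.52, adjusted p = 0.0280 in edgeR), Amdhd2 (0.45, adjusted p = 0.00553) and Gnpda2 (0.61, adjusted p = 0.00871), and 20.6% of all genes rose there.

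Receptors for chitin and for the lectins were called in small numbers. Of 9 tested, 2 rose in F KO, where 4.63% of all genes rose. They were Cd44, a hyaluronan receptor (0.95, SE 0.24, adjusted p = 0.0286 in edgeR), and Tlr2, a pattern receptor (0.61, SE 0.16, adjusted p = 0.0309). Each call was lost without any 1 of the 4 libraries (adjusted p from 0.0716 to 0.207 for Cd44 and from 0.0615 to 0.238 for Tlr2 in edgeR). Tmem219, a partner of Il13ra2, and Lysmd3, a chitin-binding membrane protein, were at -0.11 and 0.21 (adjusted p = 0.562 and 0.253 in edgeR). In F WT 3 of the 9 were called, a smaller share than the 43.1% of all genes. Tlr2 (0.90, adjusted p = 8.09e-04 in edgeR) and Cd44 (1.15, adjusted p = 0.00280) rose and Il13ra2, the receptor chain bound by Chil1, fell (-2.23, adjusted p = 7.14e-04).

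Genes of IL-4 and IL-13 signalling, the pathway known to induce Chil4, were present except for Il13, which had 1 count in all libraries together. In F KO, 1 of 11 tested genes was called, near the 10.4% of all genes called there. It was the feedback inhibitor Cish, which rose (0.96, SE 0.25, adjusted p = 0.0333 in edgeR), and its call was lost without any 1 of the 4 libraries (adjusted p from 0.0918 to 0.226 in edgeR). Stat6, Il13ra1 and Jak1 were at -0.05, -0.29 and 0.20 (adjusted p = 0.729, 0.324 and 0.104 in edgeR). In F WT, 4 rose and 4 fell by edgeR's test, against 20.6% and 22.4% of all genes. Those that rose were Cish (2.02), Socs1 (1.25), Il4 (0.92) and Il4ra (0.66). Those that fell were Il13ra2 (-2.23), Il13ra1 (-0.70, adjusted p = 0.00669 in edgeR), Stat6 (-0.48, adjusted p = 5.89e-04 in edgeR) and Tyk2 (-0.27). The median was 0.07 there and 0.18 in F KO.

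Some of the listed genes that respond to type 2 cytokines in epithelium fell beside Chil4. In F KO, 5 of 11 tested genes fell and 0 rose, with a median log2 fold change of -1.13, and in F WT 8 fell and 0 rose, with a median of -2.97. Over all tested genes, 5.77% fell in F KO and 22.4% in F WT. The 5 were Agr2, a disulphide isomerase of mucous cells, Spdef, a factor for goblet cells, the mucin Muc5ac, the lectin Itln1 and the mucus protein Fcgbp. Agr2 was at 81.7 and 76.8 CPM in F KO naive and 8.88 and 8.20 CPM in F KO HDM (-3.21, SE 0.24, adjusted p = 1.33e-04 in edgeR). Spdef was at -2.86 (SE 0.33, adjusted p = 6.28e-04) and Muc5ac at -2.19 (SE 0.36, adjusted p = 0.00385), both in edgeR. These 3 kept their call with any 1 library left out. Fcgbp was at -2.62 (adjusted p = 0.0130 in edgeR) and Itln1 at -2.05 (adjusted p = 0.00663). Fcgbp lost its call in edgeR without F KO naive replicate 1 (-2.29, adjusted p = 0.0963), F KO HDM replicate 1 (-2.84, adjusted p = 0.0617) or F KO HDM replicate 2 (-2.42, adjusted p = 0.138), and Itln1 without F KO HDM replicate 1 (-1.93, adjusted p = 0.0527) or replicate 2 (-2.20, adjusted p = 0.0607). The others tested were not called in F KO. Clca1 was at -0.36, Alox15 at -0.33 and Arg1 at 0.28 (adjusted p = 0.532, 0.476 and 0.527 in edgeR). Foxa3 was at -1.13, Ccl11 at -0.07 and Postn at -0.02 (adjusted p = 0.309, 0.987 and 0.995 in edgeR). In F WT, Clca1 (-2.20, adjusted p = 5.14e-04 in edgeR) and Alox15 (-3.75, adjusted p = 1.81e-05) did fall. The HDM response was lower in F KO than in M KO for 2 of the 11, Agr2 (-2.99, adjusted p = 0.00349 in edgeR) and Spdef (-3.10, adjusted p = 0.00586). In that comparison 3.56% of all genes were called, and 4 of the 10 secretory markers were called as lower. In male cultures, of the 88 tested genes of all 11 lists, edgeR and DESeq2 called 0 in M WT and 0 in M KO, with 3 and 5 genes at an unadjusted p under 0.05 in edgeR. In F KO the same 88 genes held 18 calls in edgeR, where 10.4% of all genes were called, and 25 in DESeq2.

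**Figure D5:**
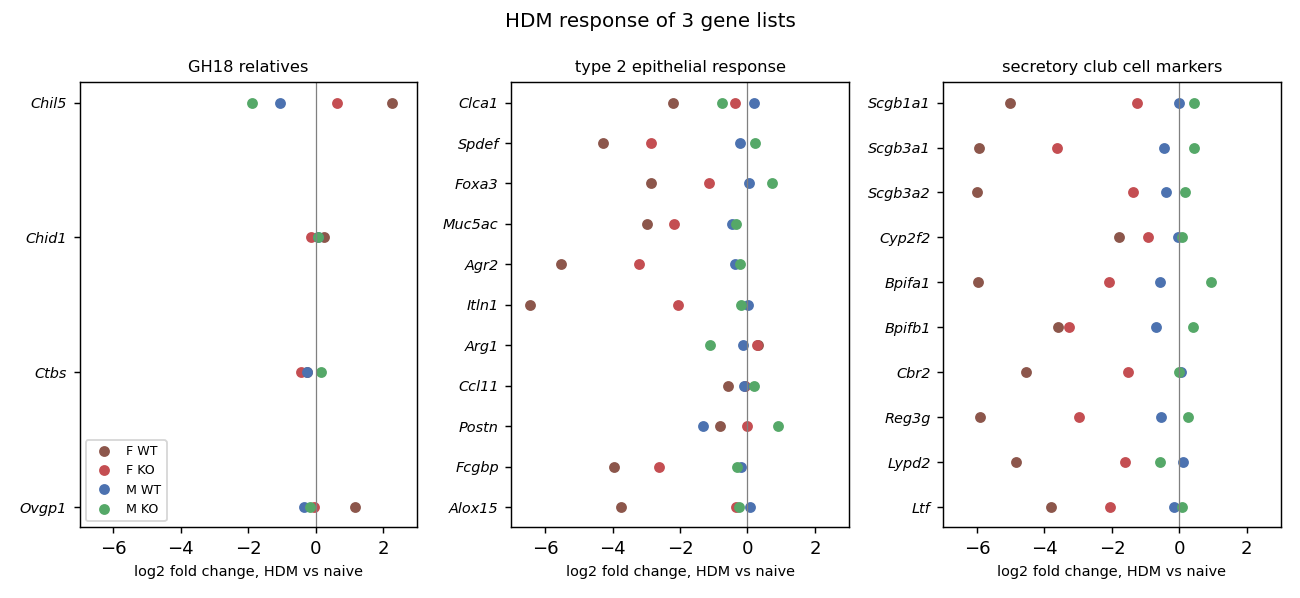
Log2 fold change between HDM and naive cultures for the tested genes of 3 lists, the GH18 relatives, the type 2 epithelial response and the secretory markers, in F WT (brown), F KO (red), M WT (blue) and M KO (green). In F WT the median lies at -4.93 for the secretory markers and -2.97 for the type 2 list, and in F KO at -1.83 and -1.13, while Chil5 of the GH18 relatives lies at 2.27 in F WT and 0.64 in F KO.

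Among the genes most like Chil4 over all 16 libraries, by Pearson correlation of log2(CPM + 1), were Misp (r = 0.979), Elf5 (0.978), Golph3l (0.977) and Cd55 (0.976). Elf5, an epithelial transcription factor, went from 11.3 CPM in F KO naive to 1.89 in F KO HDM, on average. Without the F WT HDM libraries the 5 closest of the remaining 14-library profiles were Spata6 (r = 0.970), Aldh1a7 (0.961), Sidt1 (0.957), Rnf186 (0.957) and Misp (0.955). Misp alone was in both lists. With a pseudocount of 4 in place of 1 over all 16 libraries, 2 of the 5 closest genes stayed among the 5 closest. The points share their groups and scaling, so these values describe the profiles only. Chia1, Chil1, Chil3 and Chit1 were below a mean of 1 CPM and were not compared in this way.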

How the data were processed

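RNA from 16 MTEC cultures was sequenced after mRNA enrichment. The deposited values were unnormalized whole counts, one column a library, listed by Ensembl identifier. The submitters' processing notes name Trimmomatic version 0.36, STAR version 2.5.2b, Subread version 1.5.2, featureCounts, DESeq2 and GRCm38, without their roles. Strand, annotation release and treatment of multimapped reads were not given in the sources used here. Columns were matched to samples by name. Of 49315 identifiers, 49056 matched GENCODE M21, which gave symbols, positions and exon lengths. Promoters came from RefSeq (GRCm38.p6). Levels are CPM with TMM factors.

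edgeR version 4.0.16 (R version 4.3.3) was used with filterByExpr by group, TMM scaling and 1 quasi-likelihood fit over all 8 groups (15993 genes, 8 residual degrees of freedom, common biological coefficient of variation 0.142). Tests were two-sided, p-values were adjusted by Benjamini-Hochberg over every tested gene, and calls used a threshold of 0.05. Standard errors are the absolute log2 fold change divided by the root of F. For the members 12 comparisons were tested, and those with F WT HDM libraries were described only. The floor was 3 counts per library and covers counting error alone. On simulated data for the F KO response (15625 genes), edgeR called 41 of 50 genes changed 2-fold, 49 of 50 changed 4-fold, all 50 changed 8-fold, and 10 of 15425 unchanged genes. Every simulated gene had the common variation of 0.142, and only genes with a mean of at least 1 CPM were changed. Those counts do not cover genes with wider spread or lower levels. Chil4 had a wider spread (SE 0.50 in F KO), as did the low genes Chil1 and Chia1 (SE 1.14 and 0.73). Alternatives used DESeq2 version 1.42.0, other scalings and filters, only the compared groups, a replicate block and leaving out each library. Sequences were aligned with Biopython version 1.88, and other steps used Python version 3.11.15.

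The members and gene lists were chosen with earlier results of these data known. Besides the members and Lman1, the genes named were the 3 most abundant tested genes of each list (per kilobase), genes behind a count of 5 or fewer, and the closest profiles, of which some are not reported here. No column of another series was present.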

Additional observations from a re-analysis of the deposited data

Results flagged for a closer look

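The HDM response of Chil4 differed between sexes in the cultures labelled KO. The log2 fold change in F KO minus that in M KO was -3.64 (SE 0.64, adjusted p = 0.0140 in edgeR's quasi-likelihood test). It no longer passed in edgeR without M KO naive replicate 1 (-3.58, adjusted p = 0.0535), M KO HDM replicate 1 (-3.57, adjusted p = 0.0532) or 2 (-3.70, adjusted p = 0.0622), F KO naive replicate 1 (-2.79, adjusted p = 0.0587) or F KO HDM replicate 2 (-3.01, adjusted p = 0.0658). Both HDM libraries lay below both naive libraries in F KO, M WT and M KO alike, which held for 0.65% of tested genes. The fitted Chil4 value was -3.83 in F KO and -0.19 in M KO (SE 0.41, adjusted p = 0.932 in edgeR). The M KO value did not pass, so a direction shared by F KO and M KO was not shown. Lman1 rose in F KO (2.5, adjusted p = 0.00744 in edgeR) and was at 0.75 in M KO (adjusted p = 0.781 in edgeR), and its part in the difference was not tested. No comparison could be searched for single outlying libraries, because each group held 2.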

How the results depend on the processing

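Of 132 values of the Chil4 log2 fold change under other settings, 119 kept their direction and their side of the threshold. Without a filter on low counts, Chil4 passed in M WT (-0.73), in M over both genotypes (-0.47) and for KO minus WT in HDM M (0.58). The cause was not tested. With 1 library left out, the Chil4 value ranged from -4.71 to -2.79 for the HDM response in F KO minus M KO, from -0.017 to 0.12 for KO minus WT in naive M, from -1.07 to 0.31 for KO minus WT in naive F and from -0.61 to 0.78 for M minus F in naive KO. Such fits leave 1 library in a group, which is assumed to vary like the others. Chil4 had under 10 counts in 1 library and gave no value with at least 10 counts in every library. In F KO, values near 0 turned sign when 1 library was left out, with Hexa from -0.12 to 0.20, Amdhd2 from -0.050 to 0.11, Stat6 from -0.10 to 0.00099 and Tubb4b from -0.17 to 0.097.

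Counts of all genes called moved more. In F KO, 1664 genes became 2717 with no filter, 2804 with the compared groups alone and 373 to 907 with 1 library left out. For F KO minus M KO, 569 became 1161 in DESeq2, 1977 with no filter and 52 to 1112 with 1 library left out. For M minus F in HDM KO, 4050 became 1734 to 2304 with 1 library left out. For M minus F in naive WT, 16 became 188 in DESeq2, 644 with no filter, 10 with at least 10 counts and 5 with the compared groups alone, and in naive KO 30 became 210, 859, 29 and 9. With no filter, the counts of 0 became 149 in M WT, 705 in M KO, 263 in M over both, 668 for M KO minus M WT, and 135, 98 and 1896 for KO minus WT in naive F, naive M and HDM M.

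Tracheas pooled for 2 conditions could pair naive with HDM cultures of 1 number, which the labels do not state. With 2 pairs a comparison, deviations of same-numbered naive and HDM libraries correlated at 0.352 in F WT, -0.249 in F KO, 0.702 in M WT and 0.0304 in M KO, and the numbers were not taken as pairs. With the replicate block, Chil4 was at -3.80 in F KO, with 1664 genes called, and at 0.032 for M minus F in naive KO. Crossed pairs, chosen after seeing the data, gave 4066 calls in F KO and 201 for M minus F in naive KO.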
